A study of Rattus norvegicus with 6 samples.

Results

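The heat shock proteins described here are the cytosolic and mitochondrial chaperones that a heated cell makes to hold and refold damaged proteins, measured in rat jejunum as 10 genes: Hspb1, Hspa1a, Hspa1b, Hspa8, Hsph1, Hsp90aa1, Dnajb1, Hspa9, Hspd1 and Hspe1. Members were found through the RefSeq accession that the scanner files give for each probe. They had 19 probes of 41012 on the array and covered 9 of the 10 genes, since no probe matched to Dnajb1 by accession. Of the 19 probes, 18 entered the test, for which a probe had to be well above background on every array of 1 group or both, as 31365 of all probes were. The study exposed male Sprague-Dawley rats, 6 weeks of age and 200 ± 20 g, to heat together with shaking. Rats of the S3d group were stressed for 2 h a day on 3 days at 35°C with 0.1 g of vibration. Rats of the control group stayed under the housing conditions of 25°C and 60% humidity. Each sample was RNA pooled from the jejunum of 3 rats, hybridised to a 1-colour Agilent array, with 3 arrays labelled control and 3 labelled S3d. The labels and the methods give different numbers of rats in a group, and whether pools shared animals is not known. The spread between arrays is a spread between pools, p-values measure only that spread, and 3 arrays a group limit the precision.

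Heat shock genes are switched on by heat shock factors, chiefly HSF1, which bind short repeats of the letters GAA read alternately on either strand of the promoter. HSP27, HSP70 and HSP90 are abundant stress-inducible products of this response, while HSC70, mortalin and the chaperonin pair HSP60 and HSP10 also serve unstressed cells. The gut epithelium carries HSP27 and inducible HSP70 even at rest, and both are widely used as readouts of a heat treatment. The study judged its stress model by RT-PCR of Hsp27 and Hsp70 set against β-actin, and those measurements are not used here.

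The scanner files and the normalized table disagreed on which arrays were stressed. In rank order across probes, the table's columns labelled control followed the scanner files labelled S3d and the reverse, number by number, with Spearman correlations that rounded to 1. Values below are grouped by the labels of the scanner files, and no sample was reassigned. This grouping is the reverse of the one in the table and opposes the direction in the study. By the table's own labels 6 of the 9 measured genes had the opposite sign, while Hspa8, Hspd1 and Hspe1 lay below 0 in both. Each group had a slide of its own and the scans lay 450 days apart, so group cannot be told apart from slide or scan. Processed signals at the 75th percentile ranged from 414.8 to 430 for control and from 1457.7 to 1558.3 for S3d. With each array scaled to that percentile, 74.0% of the probes tested were called at an adjusted p under 0.05 by limma with Benjamini-Hochberg adjustment, a background against which every count below must be read. As in any bulk tissue, fewer cells of a type and less RNA per cell cannot be told apart.

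The promoters of the genes are shown for the element that heat shock factors bind. Promoter windows, from 250 bases before to 50 bases after the start of the gene, came from RefSeq (build GRCr8). They were searched on both strands for a shorter element, GAA and TTC in either order with 2 bases of any kind between them, and for a longer one, in which a further such triplet follows after 2 more bases of any kind, GAA, TTC, GAA or TTC, GAA, TTC. The shorter lies within the longer. Of 33469 promoters of the same length, 0.798% held the longer element and 15.9% the shorter. Among the members, the longer element was found in Hspa8, in Hsph1, and between Hspd1 and Hspe1, neighbours that are transcribed away from each other and share 1 site. Hspb1, Hspa9 and Dnajb1 held only the shorter one. Hspa1a matched neither in this window. Hspa1b and Hsp90aa1 are not shown. A match describes letters and is not a measured binding site. Shown are the sites of the longer element and, for genes without one, 1 site of the shorter element. Capitals mark the matched letters, on the strand of the gene.
Hspa8, 213 to 201 bases before the start (chr8:50080293-50080321, + strand): gcgagcgtGAAAGTTCCAGAAcgctgcgg
Hspa8, 55 to 43 bases before the start (chr8:50080451-50080479, + strand): cggaacccTTCTGGAAGGTTCtaagacag
Hsph1, 36 to 24 bases before the start (chr12:10427324-10427352, + strand): gccgcagaTTCTGGAAAGTTCtcctcagt
Hspd1, 242 to 225 bases before the start (chr9:64084256-64084285, - strand): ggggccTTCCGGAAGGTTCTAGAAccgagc
Hspe1, 65 to 48 bases before the start (chr9:64084256-64084285, + strand): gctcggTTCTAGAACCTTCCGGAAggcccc
Hspb1, 129 to 122 bases before the start (chr12:26432412-26432441, - strand): cttcaactagaGAAGTTTCcagatgggggc
Hspa9, 84 to 77 bases before the start (chr18:26828464-26828493, - strand): gcagcaaacagGAAGTTTCtggtcaggcac
Dnajb1, 11 to 4 bases before the start (chr19:41431142-41431163, - strand): cgggaggggcgGAAGGTTCtgg

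On the arrays labelled S3d, none of the 9 genes was called higher by its brightest probe and 6 were called lower, Hspb1, Hspa8, Hsph1, Hsp90aa1, Hspa9 and Hspe1. Over all 11489 genes tested in this way 73.5% were called, 36.1% higher and 37.4% lower. At an unadjusted p under 0.05 in limma the count of higher genes was also 0, and the analysis of variance that the methods name gave 0 after adjustment. At 1.5-fold and more, 4 of the 6 passed, Hspa8, Hsph1, Hsp90aa1 and Hspa9, where 24.0% of all genes were lower and 25.2% higher by that rule. The log2 fold change of the 9 genes, S3d minus control, lay between -1.53 and -0.01 with a median of -0.71, beside a median of 0.08 over all probes tested. That 0.08 covers probes of every brightness. With all tested probes split by signal into 10 equal bins, the median was -0.49 in the bin of Hspa8, Hsp90aa1, Hspd1 and Hspe1. It was -0.16 in that of Hspb1 and -0.02 to 0.12 in those of the other genes. The groups did not overlap for the same 6 genes, all lower, where 39.7% of all genes lay wholly lower and 39.0% wholly higher. With quantile normalization Hspd1 and Hspe1 were called higher and Hspa8 stood at 0.05, and with cyclic loess Hspd1 was called higher and Hspe1 stood at 0.20 and was not called. With no scaling, with scaling to Actb or with scaling to the spike-in controls, all 9 genes had a positive log2 fold change. Of them 8, 5 and 9 were called higher in that order, beside 95.1%, 93.0% and 97.6% of all genes.

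**Figure D1:**
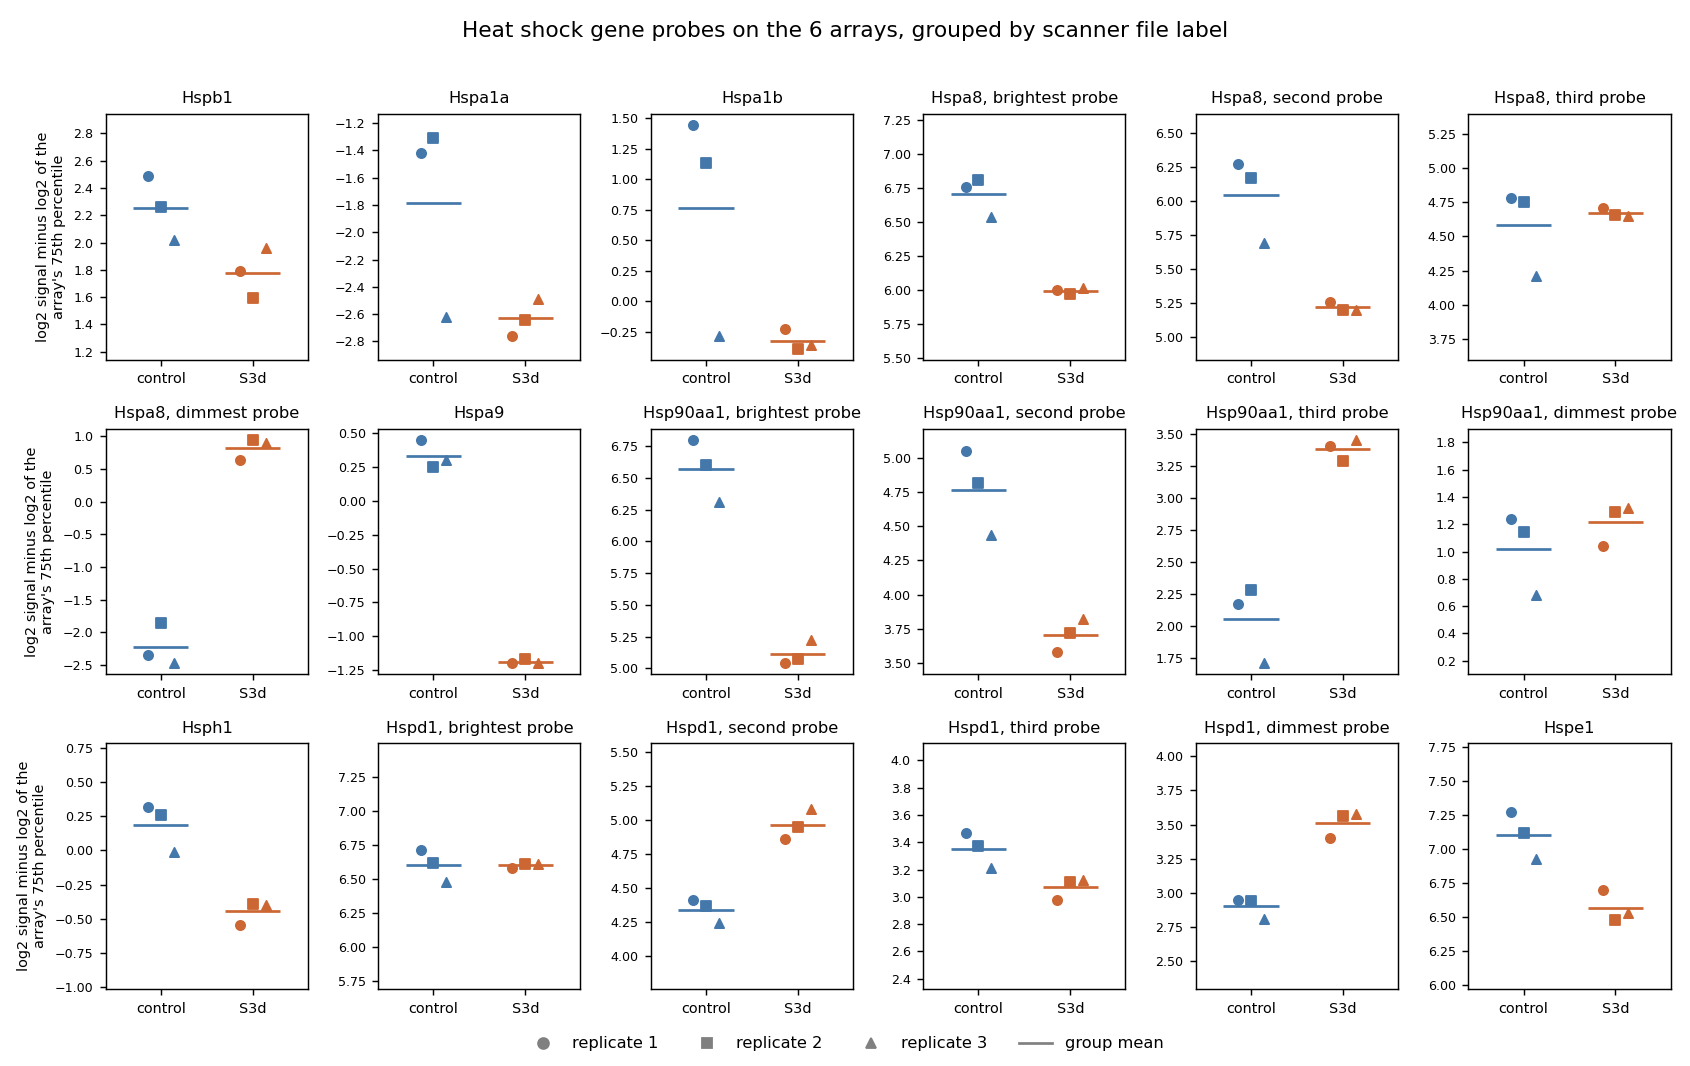
Log2 processed signal minus the log2 of the array's 75th percentile (vertical axis, its range set separately in each panel) for the 18 tested probes of the heat shock genes, on 3 arrays labelled control (blue) and 3 labelled S3d (orange). Circles, squares and triangles are replicates 1, 2 and 3 and bars are group means, and the triangle of the control group is the lowest of its group for 17 of the 18 probes.

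Hspb1 encodes HSP27, a small heat shock protein that holds unfolding proteins in solution and binds to the actin skeleton. Its probe, printed as 10 spots, had processed signals of 2328, 2043 and 1741 on the arrays labelled control, against 5055, 4687 and 6051 on those labelled S3d. Relative to the 75th percentile of each array these were log2 values of 2.49, 2.26 and 2.02 against 1.79, 1.59 and 1.96. The groups did not overlap, though the highest array labelled S3d and the lowest labelled control lay close together. Hspb1 was 1.39-fold lower on the arrays labelled S3d, a log2 difference of -0.47 ± 0.15 (SE, limma, adjusted p = 0.029). The difference kept its sign but no longer passed the test with quantile normalization, at -0.35 (limma, adjusted p = 0.072), with cyclic loess, at -0.30 (limma, adjusted p = 0.11), or with the analysis of variance that the methods name (adjusted p = 0.071). It was also lost without control 1 (-0.36), control 2 (-0.47), S3d 1 (-0.48) or S3d 2 (-0.38), with limma adjusted p-values of 0.062 to 0.087.

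Hspa1a and Hspa1b encode the stress-inducible HSP70 and are near-identical copies, so that a probe for one may also take up RNA of the other. The Hspa1a probe had log2 values of -1.42, -1.31 and -2.62 on the arrays labelled control, against -2.76, -2.64 and -2.49 on those labelled S3d. The tested Hspa1b probe, also 10 spots, had log2 values of 1.44, 1.13 and -0.29 against -0.23, -0.39 and -0.36. For both genes control 1 and control 2 were high, and control 3 lay among the arrays labelled S3d, so the groups overlapped. The log2 difference was -0.85 ± 0.35 for Hspa1a (SE, limma, adjusted p = 0.07) and its 95% interval ran from -1.71 to 0.02. For Hspa1b it was -1.08 ± 0.44 (SE, limma, adjusted p = 0.066), and neither passed the test. The second Hspa1b probe was not well above background on any array and was not tested.

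Without the array labelled control 3, Hspa1a differed by -1.26 (limma, adjusted p = 0.00048) and Hspa1b by -1.61 (limma, adjusted p = 0.00036), both on the log2 scale, and both were called. Leaving out each of the 6 arrays in turn gave -1.26 to -0.61 for Hspa1a and -1.61 to -0.75 for Hspa1b, and neither was called without any other array than control 3. Beside the mean of control 1 and control 2, control 3 was 2.38-fold lower for Hspa1a and 2.98-fold lower for Hspa1b. It was the lowest array of its group for 17 of the 18 member probes, the exception being Hspa9, and for 34.0% of all tested probes. Among the brightest probes of 60 other chaperone genes it was the lowest for 66.7%. The median SD over the member probes was 0.24 log2 units among arrays labelled control and 0.1 among those labelled S3d, where over all tested probes it was 0.11 in both groups.

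Hspa8 encodes HSC70, the HSP70 of unstressed cells, which also strips the coat from clathrin vesicles. Its 4 probes did not give 1 answer. The brightest had log2 values of 6.76, 6.81 and 6.54 on the arrays labelled control, against 6.00, 5.97 and 6.02 on those labelled S3d, a difference of -0.71 ± 0.09 (SE, limma, adjusted p = 0.00062). The second was lower as well, at -0.82 ± 0.16 (SE, limma, adjusted p = 0.0037). The third overlapped between the groups, at 0.1 ± 0.16 (SE, limma, adjusted p = 0.61). The dimmest stood apart from the rest. It had log2 values of -2.34, -1.86 and -2.47 against 0.63, 0.94 and 0.89, which is 8.21-fold higher on the arrays labelled S3d (limma, adjusted p = 3.5e-05). By the same scaling as these values, the mean of the 4 probes was 0.4 and called higher (limma, adjusted p = 0.031). With quantile normalization the brightest probe differed by 0.05 and was not called.

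Hsph1 encodes HSP105, a distant relative of HSP70 that releases ADP from it. Its single probe had log2 values of 0.32, 0.26 and -0.01 on the arrays labelled control, against -0.55, -0.39 and -0.4 on those labelled S3d. All 3 arrays labelled S3d lay below all 3 labelled control. The difference was -0.64 ± 0.11 on the log2 scale (SE, limma, adjusted p = 0.0022), 1.56-fold, and it was -0.63 with quantile normalization.

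Hsp90aa1 encodes the inducible cytosolic HSP90, which holds kinases and hormone receptors in a form ready for activation. The brightest of its 4 probes had log2 values of 6.8, 6.6 and 6.31 on the arrays labelled control, against 5.04, 5.07 and 5.22 on those labelled S3d. It was 2.76-fold lower on the latter, a log2 difference of -1.46 ± 0.14 (SE, limma, adjusted p = 0.00018), and remained lower with quantile normalization at -0.83. The second probe was lower too, at -1.06 ± 0.16 (SE, limma, adjusted p = 0.0015). The other two went the other way or were not called. The third probe had log2 values of 2.17, 2.28 and 1.71 against 3.4, 3.29 and 3.45, with no overlap and a difference of 1.33 ± 0.16 (SE, limma, adjusted p = 0.0005). The dimmest overlapped, at 0.2 ± 0.17 (SE, limma, adjusted p = 0.32). Taken as the mean of its 4 probes, Hsp90aa1 was at -0.25 and was not called (limma, adjusted p = 0.17).

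Hspa9 encodes mortalin, the HSP70 of the mitochondrial matrix and the motor of protein import. Its probe had log2 values of 0.45, 0.25 and 0.3 on the arrays labelled control, against -1.2, -1.17 and -1.2 on those labelled S3d. The gap between the groups was much wider than the spread within either. Hspa9 was 2.88-fold lower on the arrays labelled S3d, a log2 difference of -1.53 ± 0.07 (SE, limma, adjusted p = 2.1e-05). With quantile normalization the difference was -1.55, and with scaling to Actb it was 0.1 and not called.

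Hspd1 and Hspe1 encode HSP60 and HSP10, the barrel and the lid of the mitochondrial chaperonin. The brightest of 4 Hspd1 probes had log2 values of 6.71, 6.62 and 6.48 on the arrays labelled control, against 6.58, 6.61 and 6.61 on those labelled S3d. The groups overlapped, and the difference of -0.01 had a 95% interval of -0.2 to 0.18 (limma, adjusted p = 0.95). The second and the dimmest Hspd1 probes were higher on the arrays labelled S3d, by 0.62 ± 0.09 and 0.61 ± 0.08, and the third was lower, at -0.28 ± 0.09 (SE), all called by limma. Hspe1 had log2 values of 7.27, 7.12 and 6.93 against 6.7, 6.48 and 6.53, without overlap. Its difference was -0.54 ± 0.11 (SE, limma, adjusted p = 0.0053), but it turned to 0.28 with quantile normalization (limma, adjusted p = 0.039), where the brightest Hspd1 probe stood at 0.76 (limma, adjusted p = 0.00027). The direction of the chaperonin pair thus depended on the scaling.

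Counted by probe, 4 of the 18 were called higher, against 39.5% of all tested probes, and 9 were called lower, against 34.5%. All 4 higher calls came from the 3 genes with several tested probes, the dimmest of Hspa8, the third of Hsp90aa1 and the second and the dimmest of Hspd1. The log2 fold changes of the Hspa8 probes spanned 3.86, a span that 3 of the 75 genes with 4 tested probes reached. Those of Hsp90aa1 spanned 2.79, reached by 7 of the 75, and those of Hspd1 spanned 0.9, reached by 63. The median span of the 75 genes was 1.61. Over the 2626 genes with more than 1 tested probe, probes of opposite sign occurred in 43.5%, and the brightest probe had a lower log2 fold change than the dimmest in 59.6%. The log2 fold change of all tested probes moved with the signal, from a median of 1.28 in the dimmest of 10 equal bins to -0.49 in the brightest. Of the 18 member probes 10 belonged to the brightest bin. Which transcript each probe reads was not tested.

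**Figure D2:**
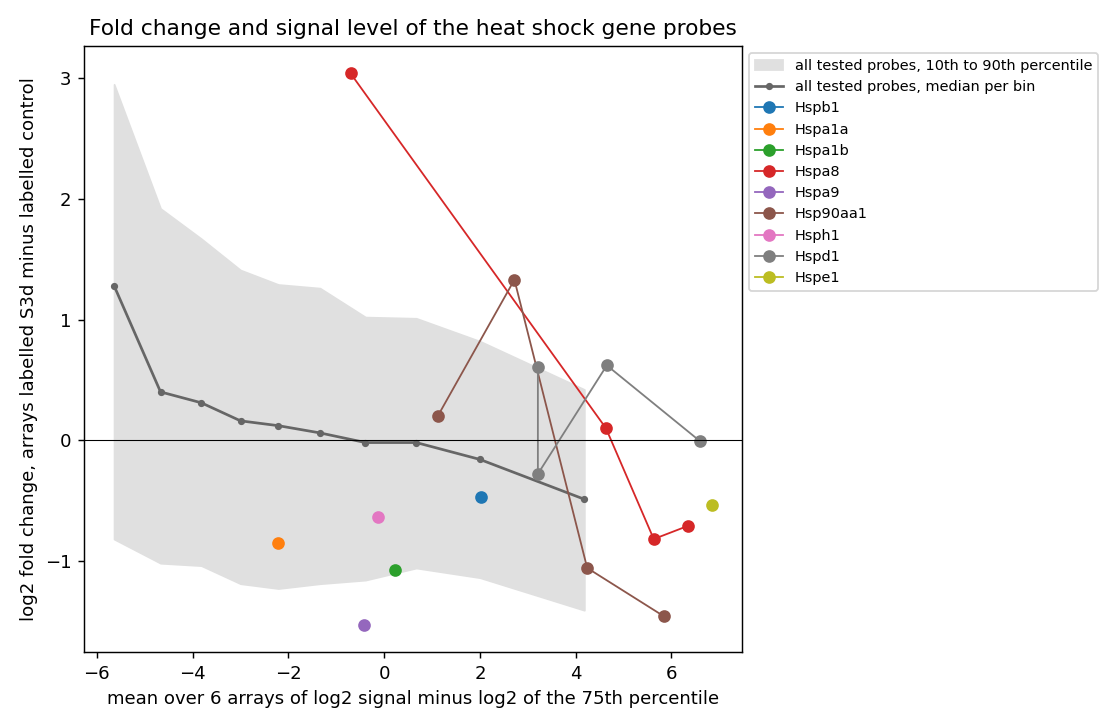
Log2 fold change, arrays labelled S3d minus labelled control (vertical axis), against the mean log2 signal relative to the 75th percentile (horizontal axis) for the 18 member probes, with lines joining probes of 1 gene. The grey line and band are the median and the 10th to 90th percentiles of all tested probes in 10 bins of equal size, and 7 member probes lie outside the band of their own bin, the dimmest Hspa8 probe at 3.04, Hsp90aa1 at 1.33 and Hspd1 at 0.62 and 0.61 above it and Hspa9 at -1.53, Hsp90aa1 at -1.46 and Hspa1b at -1.08 below it.

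The sign of the members' changes turned on the scaling. With no scaling the 9 genes were higher on the arrays labelled S3d by log2 differences of 0.32 for Hspa9 to 1.84 for Hspd1, and 8 of 9 were called, where 95.1% of all genes were called higher and 1.33% lower. Scaled to Actb, the gene the study used as its RT-PCR reference, 5 were called higher, Hspb1, Hspa8, Hsph1, Hspd1 and Hspe1, beside 93.0% of all genes, with 2.1% lower. Scaled to 8 spike-in transcripts, an alternative chosen after seeing the data, 9 were called higher, beside 97.6% of all genes, with 0.374% lower. Quantile normalization, which makes all arrays share 1 distribution, left Hspa1a, Hspa9, Hsp90aa1 and Hsph1 called lower and Hspd1 and Hspe1 called higher, where 34.8% of all genes were called lower and 35.2% higher. With median centring 8 were called lower, all but Hspd1, beside 45.1% of all genes, with 29.2% higher. Background subtraction with an offset of 50, also chosen after seeing the data, gave the same 8, beside 53.5% of all genes, with 23.9% higher. Cyclic loess, chosen likewise, called Hspa9, Hsp90aa1 and Hsph1 lower and Hspd1 higher, beside 33.8% lower and 36.7% higher. The normexp background correction called Hspa1a and Hspa9 lower, beside 2.72% lower and 1.81% higher, with a fitted background of -840.9 on control 3 and of -12.8 to -5.5 on the other arrays. By their brightest probes, Hspa9, Hsph1 and Hsp90aa1 were called lower with the 75th percentile, the median, background subtraction, cyclic loess and quantile scaling alike. The third Hsp90aa1 probe was called higher under each of these scalings, by 1.15 to 1.58. With normexp, Hsph1 (limma, adjusted p = 0.097) and the brightest Hsp90aa1 probe (limma, adjusted p = 0.19) were not called.

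In the deposited normalized table, by its own labels, Hspa1a, Hspa9, Hsp90aa1 and Hsph1 were called higher in S3d and Hspd1 and Hspe1 lower, where 34.6% of all genes were called higher and 35.0% lower. The Hspa1b probe had table values, on the log2 scale, of 9.44, 9.25 and 9.28 in the columns labelled control and 11.04, 10.77 and 9.36 in those labelled S3d. Here the low array is S3d 3. For Hspa1a the table held 6.8, 6.92 and 7.08 against 8.27, 8.37 and 7.1. The difference was 0.98 for Hspa1a (limma, adjusted p = 0.045) and 1.07 for Hspa1b (limma, adjusted p = 0.071). For Hspb1 it was 0.34 (limma, adjusted p = 0.076), with values of 11.49, 11.29 and 11.66 against 12.04, 11.83 and 11.62. The table's values per gene were close in size, and opposite in sign, to those from quantile normalization of the scanner files.

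**Figure D3:**
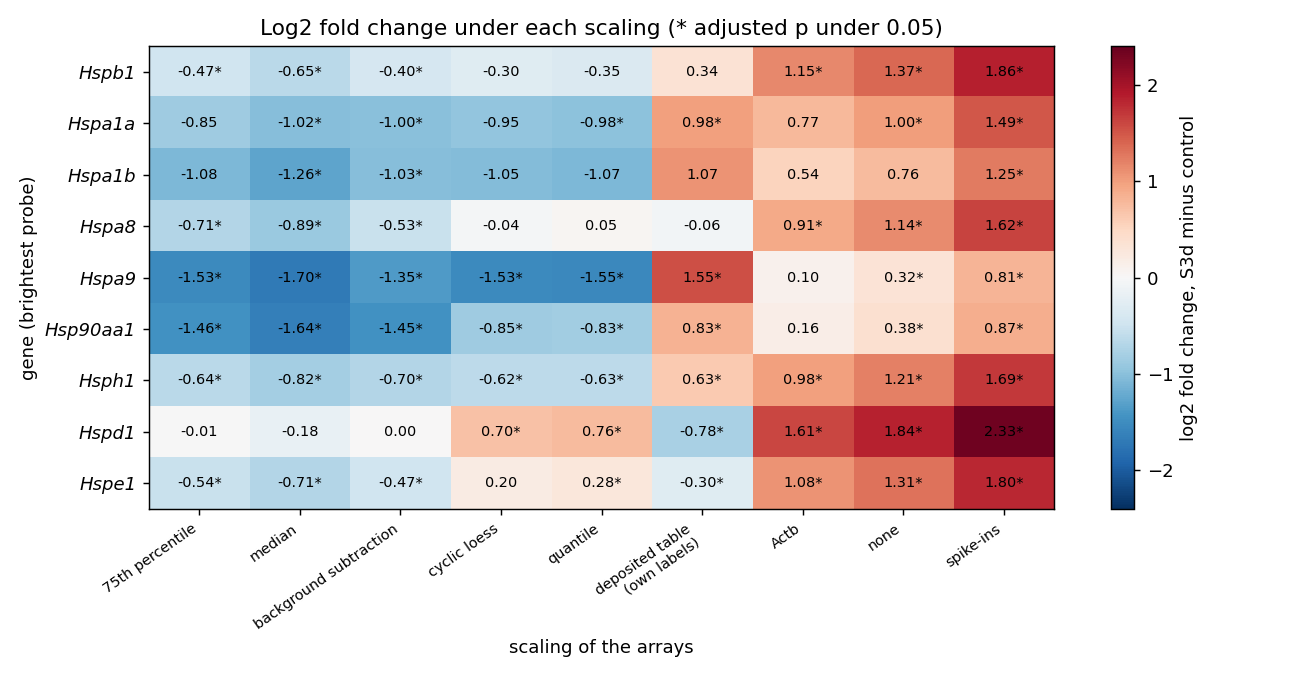
Log2 fold change, S3d minus control, of the brightest probe of each of the 9 heat shock genes (rows) under 9 scalings of the arrays (columns), with colour from blue (lower) to red (higher) and an asterisk at an adjusted p under 0.05 in limma. All 9 genes are red with Actb, no scaling or spike-ins, while among scalings of the scanner files Hspa9 runs from -1.70 with median centring to 0.81 with spike-ins, and it is 1.55 in the column of the deposited table, which uses that table's own labels.

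The genes that work with these chaperones were taken as 6 lists of 65 genes, of which 60 were tested. By brightest probe 14 were called higher on the arrays labelled S3d and 26 lower, with a median log2 fold change of -0.16. Of the 4 heat shock factors and regulators, 3 were called lower, among them Hsf1, the main activator of the heat shock genes, at -1.13 (limma, adjusted p = 0.00012), and Hsf4 at -1.36. Hsf1 had log2 values of 2.31, 2.05 and 2.12 against 1.13, 0.93 and 1.01. Both turned positive with no scaling, Actb or spike-ins, at 0.71, 0.49 and 1.20 for Hsf1. Of 10 tested HSP90 partners 6 were called lower and 1 higher. Fkbp5, a co-chaperone of steroid receptors that glucocorticoids induce, had the lowest value, -2.71 (limma, adjusted p = 2.3e-05), and its arrays read 3.39, 3.53 and 3.63 against 0.53, 0.98 and 0.9. Fkbp5 stayed lower under every scaling of the scanner files, down to -0.38 with spike-ins, where it no longer passed the test. Stub1, the ubiquitin ligase CHIP that marks chaperone clients for removal, was higher by 0.78, and Hsp90ab1, the constitutive HSP90, stood at -0.01 (limma, adjusted p = 0.91). Of the other two Hsp90ab1 probes 1 was at -0.07 and not called and 1 was higher by 2.23 (limma, adjusted p = 1.9e-05).

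Among 15 relatives and nucleotide exchange factors of HSP70, 4 were called higher and 5 lower. Bag5, an exchange factor, was higher by 1.78 and Hspa14, an HSP70 relative that works at the ribosome, was lower, at -0.49, which turned to 1.36 with no scaling. In the deposited table, by its own labels, Hspa14 stood at 0.18 and was not called (limma, adjusted p = 0.11). Of 12 J-domain proteins, which start the ATPase of HSP70 and are the family of Dnajb1, 4 were called higher and 6 lower, from Dnajb6 at -2.15 to Dnaja2 at 1.7. Dnaja2 was higher under every scaling of the scanner files. Of 7 small heat shock proteins other than Hspb1, 1 was called higher, Hspb8 at 0.66, 1 lower, Hspb7 at -0.88, and 5 were not called. The other Hspb7 probe overlapped between the groups, at 0.08, and was not called (limma, adjusted p = 0.44). Of 12 mitochondrial chaperones and proteases 4 were called higher, led by the disaggregase Clpb at 0.61, and 5 lower, led by the import factor Dnajc19 at -0.87. The other Dnajc19 probe was called higher, at 0.54 (limma, adjusted p = 0.01), and the mean of both, -0.16, was not called. Each list held genes of both directions but for the heat shock factors, and with 36.1% and 37.4% of all genes called either way, no count is set apart from the rest of the array by this description.

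**Figure D4:**
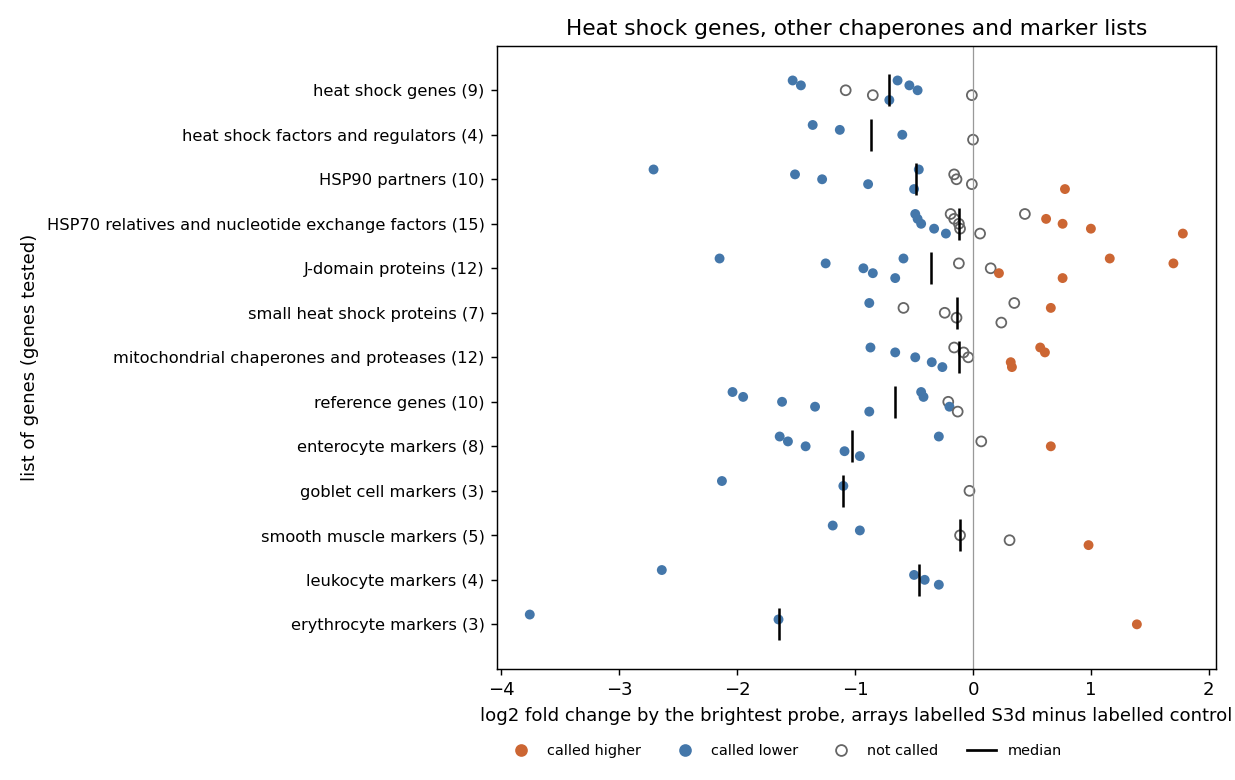
Log2 fold change by the brightest probe, arrays labelled S3d minus labelled control (horizontal axis), of the 9 heat shock genes, the genes of 6 chaperone lists, reference genes and cell type markers (rows, with the number tested). Filled points passed the test (orange higher, blue lower), open points did not, and black bars are medians, -0.71 for the heat shock genes and -0.66 for the reference genes.

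Reference and marker genes differed between the groups as well, in either direction for some lists. Over all genes tested 37.4% were called lower and 36.1% higher, and the counts below must be read beside these shares. Among all tested probes in the brightest of 10 signal bins, the median log2 fold change was -0.49. Of 10 reference genes 8 were called lower and none higher by limma, with a median of -0.66, Actb at -1.62 and Gapdh at -1.34, and both turned positive with no scaling, at 0.23 and 0.51. Vil1 and Fabp2, genes of the absorptive epithelium, were well above background on all 6 arrays. Of 8 tested enterocyte markers 6 were called lower and 1 higher, with Vil1 at -0.29 and Fabp2 at -1.09 by the 75th percentile but 0.24 and 0.12 by quantile normalization. Of 3 goblet cell markers 2 were called lower. Of 5 smooth muscle markers 1 was called higher and 2 lower, and Actg2 stood at 0.31 (limma, adjusted p = 0.052). All 4 tested leukocyte markers were called lower, with Ptprc at -2.64 by its brightest probe. The other Ptprc probes split, with -0.53 called lower and 0.69 called higher. Of 3 erythrocyte markers 1 was called higher, Hemgn at 1.39, and 2 lower, where Hbb, a globin of red cells, read 1.04, 1.1 and 1.28 against -3.12, -2.99 and -1.76. Hemgn was not well above background on any array labelled control. It entered the test only through the arrays labelled S3d, so its value is set against background. The part of these genes in the members' differences was not tested.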

How the data were processed

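Jejunal RNA of 6 pooled samples, 3 labelled control and 3 labelled S3d, was measured on 1-colour Agilent arrays. Per the file headers, the authors extracted spots with Agilent Feature Extraction 10.7.3.1, and the deposited scanner files hold the background-subtracted processed intensity of each spot. The authors also deposited a table of log2 values whose sorted columns differ by at most 0.0025, so that all columns share nearly 1 distribution. Its normalization is not given in the sources used here. Depth has no meaning for arrays, and the number of arrays limits the precision.

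From the scanner files, control spots and outlier flags were left out, log2 intensity was reduced by the log2 of each array's 75th percentile, spots of a probe were averaged, and probes well above background on every array of 1 group or both were fitted with limma 3.58.1 in R 4.3.3 (lmFit, eBayes, Benjamini-Hochberg adjustment over 31365 probes, call at an adjusted p under 0.05). The script was tested on simulated data. Probes were named by RefSeq accession (13838 genes), and Hspa1b through the accession that the study's gene list gives for it. The brightest probe over 6 arrays stood for a gene. No spot was saturated. Replicate numbers did not pair the arrays, since deviations from the group means of same-numbered arrays correlated at 0.02, 0.022 and -0.049. Normexp used the median signal, as no mean signal column was used here. Alternatives were other scalings and background corrections, filters on dim probes, array weights, an intensity trend, a replicate block, the analysis of variance that the methods name, the mean of all probes of a gene, the deposited table and leaving out each array. Slide as a block could not be fitted, since each slide held 1 group. Members and lists were chosen with earlier results of these data known. The genes named were every member, the called gene with the largest change in each direction in each chaperone list where the groups did not overlap, Hsf1, Hsp90ab1, and preset markers and references.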

Additional observations from a re-analysis of the deposited data

How the results depend on the processing

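Values are log2 fold changes, S3d minus control, unless named as counts, and alternatives with spike-ins, cyclic loess and background subtraction were chosen after seeing the data. The deposited table differed from the main analysis in both labels and normalization, and the part of each was not tested. By its own labels the following genes had the sign opposite to the main one. Hspb1 stood at 0.34, Hspa1a at 0.98, Hspa1b at 1.07, Hspa9 at 1.55, Hsp90aa1 at 0.83, Hsph1 at 0.63, Hsf4 at 1.69, Stub1 at -1.02, Fkbp5 at 2.56, Bag5 at -1.76, Hspa14 at 0.18, Dnaja2 at -1.90, Dnajb6 at 1.97, Hspb8 at -0.53, Hspb7 at 1.13, Clpb at -0.63, Dnajc19 at 0.48, Hsf1 at 1.06, Actg2 at -0.98, Ptprc at 2.76, Hbb at 3.85, Actb at 0.35 and Gapdh at 0.27. Hspa8 at -0.06, Hspd1 at -0.78, Hspe1 at -0.30, Hsp90ab1 at -0.71, Vil1 at -0.24 and Fabp2 at -0.24 kept the main sign. That table called 4 members higher, 2 lower and 17 other chaperone genes lower. With no scaling, Hspb1 was 1.37, Hspa1a 1.00, Hspa1b 0.76, Hspa8 1.14, Hspa9 0.32, Hsp90aa1 0.38, Hsph1 1.21, Hspd1 1.84, Hspe1 1.31, Hsf4 0.49, Hspa14 1.36, Hspb7 0.97, Dnajc19 0.98, Hsf1 0.71, Hsp90ab1 1.84, Vil1 1.55, Fabp2 0.75, Actb 0.23 and Gapdh 0.51, with 8 members and 17 of their probes called higher and 0 lower by limma, and 58 other chaperone genes higher and 1 lower. Scaled to Actb, the values in the same order without Actb were 1.15, 0.77, 0.54, 0.91, 0.10, 0.16, 0.98, 1.61, 1.08, 0.26, 1.13, 0.74, 0.75, 0.49, 1.61, 1.33, 0.53 and, for Gapdh, 0.28, with 5 members and 14 probes higher, 0 lower, and 56 chaperone genes higher and 2 lower. Scaled to spike-ins, they were 1.86, 1.49, 1.25, 1.62, 0.81, 0.87, 1.69, 2.33, 1.80, 0.97, 1.84, 1.46, 1.47, 1.20, 2.32, 2.04, 1.24, 0.71 for Actb and 1.00 for Gapdh, with Dnajb6 at 0.18, 9 members (9 at 1.5-fold) and 18 probes higher, 0 lower, and 58 chaperone genes higher and 0 lower. These scalings moved the median of all tested probes from 0.08 to 1.93, 1.71 and 2.42. Quantile normalization gave Hspa8 0.05, Hspd1 0.76, Hspe1 0.28, Hsp90ab1 0.69, Vil1 0.24 and Fabp2 0.12, with 2 members and 7 probes called higher and 5 probes lower. Cyclic loess gave Hspd1 0.70, Hspe1 0.20, Hsp90ab1 0.66 and Vil1 0.25, with 1 member higher, 3 lower and 4 probes lower. Median centring called 8 members at 1.5-fold. The normexp correction called 1752 probes in all, 2 members lower (2 at 1.5-fold), 0 member probes higher and 2 lower, and 2 chaperone genes each way, with Hspd1 0.49, Hspe1 0.02, Hspa14 0.14, Hspb8 -0.33, Hsp90ab1 0.69 and Vil1 0.39. Its fitted background was -840.9 on the array labelled control 3 and -12.8 to -5.5 on the others. Background subtraction with an offset of 50 called 24964 probes and 8 members lower, with Hspd1 at 0.00 and Hsp90ab1 at 0.21. The mean of all probes gave Hspa8 0.40, Hspd1 0.24 and Hsp90ab1 0.72, with Hsp90aa1 (-0.25) and Dnajc19 (-0.16) no longer called, 2 members higher and 2 called at 1.5-fold. Array weights gave Hspd1 0.00. An unadjusted p under 0.01 with 1.5-fold called 16 chaperone genes lower. The replicate block called 5 members lower and 0 higher by limma, and Hspb1 was no longer called, at -0.47. Leaving out 1 array gave 3 to 8 members called at 1.5-fold (8 without control 3), 5 to 8 called lower, -0.07 to 0.05 for Hspd1 and -0.05 to 0.05 for Hsp90ab1. The one-way analysis of variance called 5 members lower.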

Other observations

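The 8 spike-in transcripts well above background on all 6 arrays differed by -0.85 to -0.06 on the unscaled log2 signal, S3d minus control, while the median of all tested probes was 1.93 higher.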
